A study of Mus musculus with 2 samples.

Results

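The genes that mark radial glia and their precursors, the neuroepithelial cells, were compared between mouse ES cells and E10.5 forebrain. The set holds 8 genes, namely *Nes*, *Vim*, *Fabp7*, *Slc1a3*, *Prom1*, *Msi1*, *Msi2* and *Gfap*, taken by symbol. The choice was made with earlier results of these data known. All 8 were found among the 29311 genes listed in both tables, of which 19620 are protein-coding. Each condition was represented by 1 RNA-seq library of wild-type cells, without replicates. The ES cells were of the E14 line, grown without feeders in serum and LIF. The forebrain was dissected from B6CBAF1/J embryos at stage E10.5 (hereafter forebrain), and its RNA was isolated from single embryos. Both samples yielded total RNA that was depleted of rRNA and sequenced strand-specifically. They thus differ in strain, in culture against tissue and in the extraction reagent (Trizol for ES cells, Trizol LS for forebrain), which cannot be told apart from the cell type.

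The wall of the early neural tube is a single layer of neuroepithelial cells that span it from the ventricle to the outer surface. These cells divide at the ventricular side and keep apical junctions there. With the onset of neurogenesis they turn into radial glia, which retain the elongated shape, serve as progenitors of neurons and acquire glial proteins such as brain lipid-binding protein and the glutamate transporter GLAST. Nestin and vimentin form the intermediate filaments of these cells, whereas GFAP is the filament protein of astrocytes and, in rodents, appears late.

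The values deposited by the authors are called RPKM (reads per kb of exon, scaled per sample). Multiplied by exonic length, most low values were whole multiples of a step, 1.221 in ES cells and 0.8191 in forebrain, which was taken as 1 read. In this way 42779427 reads on genes were inferred for ES cells and 59782411 for forebrain, which made the latter library 1.40 times as deep. An RPKM of 37.1 corresponded to 1 inferred read per kb and per 1000000 reads on protein-coding genes in both samples. The intervals given below are exact 95% intervals on the inferred reads and cover counting error only. Without replicates there is no test of a difference, and 2-fold on log2(RPKM + 1) was used as a rule of size. In bulk RNA, fewer cells of a type and less RNA per cell cannot be told apart.

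The labels were compared with marker lists. All 8 pluripotency genes were at least 2-fold higher in ES cells, with a summed RPKM of 41398.7 compared with 161.8 in forebrain. Of 13 transcription factors of neural progenitors, 12 are listed (not *Sox1*), and 10 were at least 2-fold higher in forebrain. *Sox2* was the exception in the opposite direction (7181.95 in ES cells and 2602.06 in forebrain), and *Hes1* lay within 2-fold. Of 9 neuron genes, 8 were at least 2-fold higher in forebrain and 1, *Stmn2*, in ES cells (6910.29 and 1056.31). The forebrain sample also held RNA of other cells. All 9 mesenchyme genes were at least 2-fold higher there (summed RPKM 19817.7 compared with 120.8), as were all 7 primitive erythroid genes (676169.1 compared with 364.2), 6 of 7 endothelial genes (2679.5 compared with 629.5) and all 6 microglia and macrophage genes (817.6 compared with 84.5). No gene of these 4 lists was at 0 in forebrain. In ES cells, *C1qa*, *Tyrobp* and *Ptprc* were at 0. The remaining endothelial gene, *Pecam1*, lay within 2-fold (551.14 in ES cells and 316.51 in forebrain) and made up most of the endothelial sum in ES cells. Likewise, *Csf1r* (77.98) made up most of the microglia and macrophage sum in ES cells. *Vim* is also a gene of mesenchyme and endothelium, and *Nes* of growing vessels. The part of such cells in the values that follow was not tested.

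Of the 8 progenitor genes, 7 had a higher RPKM in forebrain and 1, *Gfap*, in ES cells. The direction of *Gfap* rests on 8.5 and 6.0 reads, and its interval included equal levels. The share of all genes with any higher RPKM in forebrain was not counted. At least 2-fold higher in forebrain were 5 genes (*Fabp7*, *Msi1*, *Nes*, *Prom1* and *Slc1a3*), where 25.8% of all listed genes and 27.9% of protein-coding genes passed this limit. At least 4-fold higher were 4 genes, compared with 14.4% of all listed and 15.6% of protein-coding genes. No progenitor gene was at least 2-fold higher in ES cells, which applied to 23.3% of all listed and 18.9% of protein-coding genes. The same 2-fold shares apply to the counts of the marker lists above and of the related lists below. The remaining 3 genes, *Vim*, *Msi2* and *Gfap*, lay within 2-fold, the first pair at high levels in both samples and *Gfap* at the lower end of both. The median log2 difference of the 8 genes was 2.75, compared with 0.01 for all listed genes and 0.17 for protein-coding genes.

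**Figure D1:**
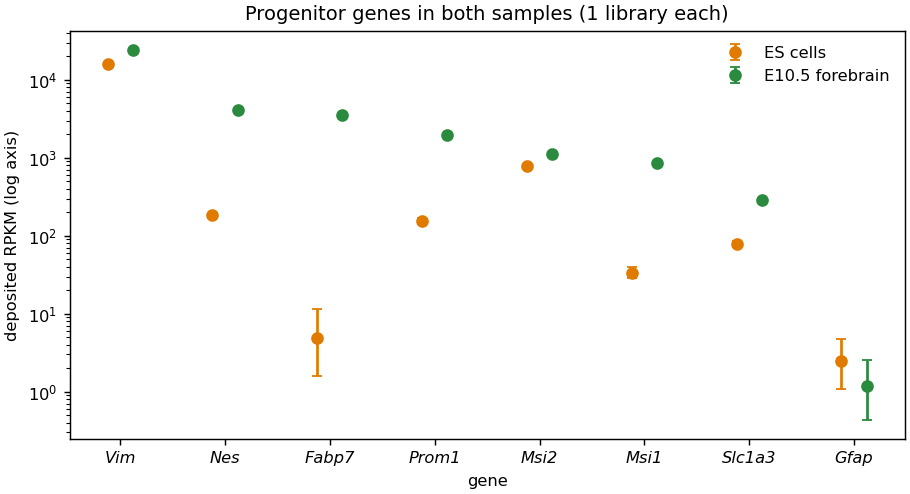
Deposited RPKM (log axis) of the 8 progenitor genes in ES cells (orange) and forebrain (green), ordered by their level in forebrain. Each point is 1 library and each bar the exact 95% interval for counting of inferred reads, smaller than the point for most genes. The gap between samples is widest for *Fabp7* (4.88 and 3551.25) and narrow for *Vim* and *Msi2*, and the bars of *Gfap* overlap.

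In ES cells the order of the levels was *Vim*, *Msi2*, *Nes*, *Prom1*, *Slc1a3*, *Msi1*, *Fabp7* and *Gfap*, over a 6413-fold range of RPKM. The intervals of the last pair overlapped, so these intervals do not settle their order. In forebrain the order was *Vim*, *Nes*, *Fabp7*, *Prom1*, *Msi2*, *Msi1*, *Slc1a3* and *Gfap*, and no intervals of neighbours overlapped. *Fabp7* thus moved from the seventh to the third place. *Vim* alone held 92.7% of the summed RPKM of the 8 genes in ES cells and 67.0% in forebrain. In ES cells 4 of the genes exceeded the median RPKM of protein-coding genes (79.97), and in forebrain 7 exceeded the corresponding median of 123.99. *Slc1a3* lay just below the median in ES cells (78.94), and its interval there (72.49 to 85.81) included that median.

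For genes with such different patterns, the 250 bases before the RefSeq transcription start (GRCm38.p6) are given. Whether these bases regulate the genes was not tested. Printed are those of *Fabp7*, which differed most between the samples, of *Nes*, of *Vim* (high in both) and of *Gfap* (low in both). They lie at chr10:57784673-57784922 (plus strand), chr3:87970843-87971092 (plus strand), chr2:13574061-13574310 (plus strand) and chr11:102897201-102897450 (minus strand), and each is printed 5′ to 3′ on the strand of the gene. Capitals mark the short motifs searched on both strands, the CCAAT box (CCAAT), the GC box (GGGCGG) and the TATA box (TATAAA).
Fabp7: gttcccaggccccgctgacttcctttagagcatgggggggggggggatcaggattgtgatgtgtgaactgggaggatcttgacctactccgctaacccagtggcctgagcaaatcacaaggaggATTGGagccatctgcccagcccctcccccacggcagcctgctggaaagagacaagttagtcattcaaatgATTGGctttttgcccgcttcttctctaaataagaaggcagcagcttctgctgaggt
Nes: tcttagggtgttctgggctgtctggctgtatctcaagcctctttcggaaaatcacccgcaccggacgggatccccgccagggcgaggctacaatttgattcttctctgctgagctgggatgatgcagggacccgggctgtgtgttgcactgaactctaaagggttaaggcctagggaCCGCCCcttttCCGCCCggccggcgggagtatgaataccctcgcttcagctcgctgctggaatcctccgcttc
Vim: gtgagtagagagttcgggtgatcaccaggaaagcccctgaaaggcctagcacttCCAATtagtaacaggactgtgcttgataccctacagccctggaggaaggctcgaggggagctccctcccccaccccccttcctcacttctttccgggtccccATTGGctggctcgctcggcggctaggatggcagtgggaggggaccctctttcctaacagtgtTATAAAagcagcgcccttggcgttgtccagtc
Gfap: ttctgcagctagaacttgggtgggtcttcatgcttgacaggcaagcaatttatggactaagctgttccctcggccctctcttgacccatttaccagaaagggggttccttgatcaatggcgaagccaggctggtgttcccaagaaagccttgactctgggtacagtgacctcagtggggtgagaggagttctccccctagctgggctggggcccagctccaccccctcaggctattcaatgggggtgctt

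The RefSeq table held promoters for 7 of the 8 genes, all except *Msi1*. In the 250 bases upstream of *Vim*, a TATA box began 32 bases before the start, and CCAAT boxes began at 196 and, on the opposite strand, at 94 bases. *Fabp7* had CCAAT boxes on the opposite strand at 126 and 56 bases and *Nes* had GC boxes on the opposite strand at 73 and 62 bases, whereas none of these motifs was found for *Gfap*. None was found in the second listed promoter of *Prom1* either, while its first held a GC box and a CCAAT box. CCAAT and GC boxes were also found for *Msi2* and *Slc1a3*, and a TATA box for *Slc1a3*. Over all 32851 promoters of the table, 33.8% held a CCAAT box, 32.7% a GC box and 12.4% a TATA box in the same window. The core motifs of RBPJ (GTGGGAA), the octamer factors (ATTTGCAT) and SOX proteins (AACAAT) were present in 5.4%, 1.6% and 9.4% of all promoters and in none of those of the 7 genes. The number of CpG dinucleotides was 4 for *Fabp7*, 15 for *Nes*, 8 for *Vim* and 2 for *Gfap*, with a median of 6 over all promoters. The first listed promoter of *Msi2* held 29 CpG (percentile 93.2), that of *Prom1* 9 and that of *Slc1a3* 2. The second listed promoter of *Prom1* held 3. For *Slc1a3* and for this promoter of *Msi2*, the end of the promoter sequence was not found in an annotated protein-coding transcript of the gene. The first listed promoters below the median of 6 were those of *Fabp7* and *Slc1a3*, past 2-fold in forebrain, and of *Gfap*, low in both samples. A relation between CpG and level was not tested. A match of letters is a description of the sequence and not evidence that a factor binds there.

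*Nes* encodes nestin, the long intermediate filament protein by which neural progenitors are commonly recognised (chromosome 3, 87775000 to 87784373 on the plus strand, NCBIM37). Its RPKM was 182.90 in ES cells (171.5 to 194.8, from 961.1 inferred reads) and 4127.24 in forebrain (4082 to 4172, from 32327.8 reads). The intervals were far apart, and the ratio of forebrain over ES cells was 22.57 (21.16 to 24.09). Among protein-coding genes *Nes* moved from percentile 60.2 in ES cells to 98.2 in forebrain, where it ranked 346th of 19620.

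*Vim* encodes vimentin, the filament protein that co-assembles with nestin (chromosome 2, 13495554 to 13504453 on the plus strand). It had an RPKM of 15776.46 in ES cells (15599 to 15955, 30171.4 reads) and of 24191.27 in forebrain (24011 to 24373, 68960.1 reads). It was thus among the most abundant protein-coding mRNAs of both samples, at rank 56 in ES cells and rank 23 in forebrain. The ratio was 1.533 (1.513 to 1.554), a log2 difference of 0.62 at percentile 63.6 of protein-coding genes. Relative to *Vim*, *Nes* stood at 1.16% in ES cells and at 17.1% in forebrain.

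*Gfap*, the filament gene of astrocytes, lies on chromosome 11 (102748650 to 102762226, minus strand). Its RPKM was 2.46 in ES cells (1.094 to 4.754, 8.5 inferred reads) and 1.17 in forebrain (0.4305 to 2.543, 6.0 reads). Both values exceeded the level of 3 reads (0.87 and 0.58), but the intervals overlapped. The ratio was 0.4756 with an interval from 0.138 to 1.526, and a difference was not detectable at this depth. *Gfap* was at percentile 20.8 of protein-coding genes in ES cells and 14.3 in forebrain.

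Of 13 other intermediate filament genes, 2 were at least 2-fold higher in forebrain, 5 in ES cells and 6 lay within 2-fold, with a median log2 difference of -0.51. Higher in forebrain were *Ina* and the keratin gene *Krt18*, and higher in ES cells were *Nefh*, *Prph*, *Nefl*, *Krt19* and *Lmna*. The 3 that differed most were *Nefh*, the heavy neurofilament gene (142.44 in ES cells and 3.21 in forebrain), *Prph*, encoding peripherin (129.29 and 8.56), and *Ina*, encoding alpha-internexin (43.71 and 213.24). *Lmnb1*, encoding the nuclear lamin B1, had the highest forebrain level of the list, with an RPKM of 4133.10 in ES cells and 4455.63 in forebrain.

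**Figure D2:**
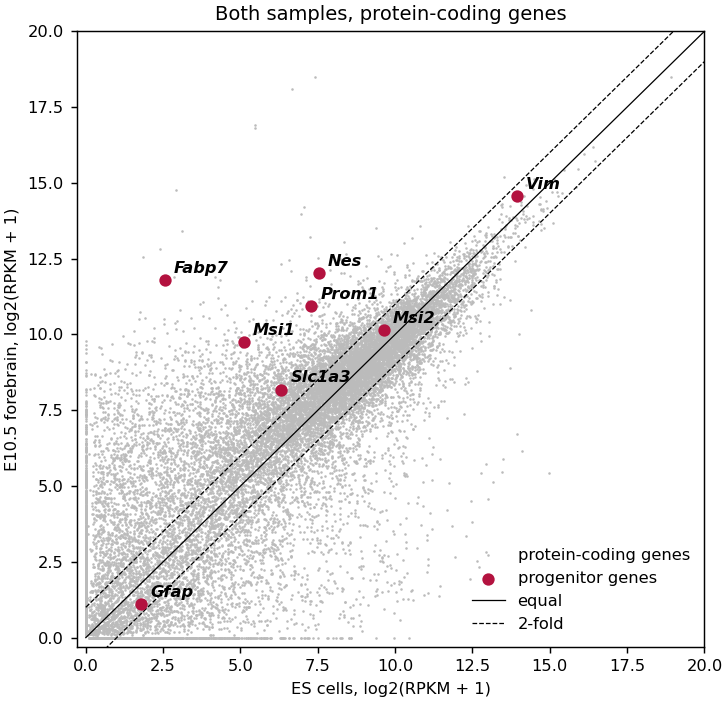
Level of 19620 protein-coding genes (grey) in ES cells and forebrain on log2(RPKM + 1), 1 library per axis, with the 8 progenitor genes in red. The solid line marks equal values and the dashed lines 2-fold. *Fabp7*, *Msi1*, *Nes*, *Prom1* and *Slc1a3* lie above the upper dashed line, while *Vim*, *Msi2* and *Gfap* lie between the dashed lines.

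*Fabp7* encodes brain lipid-binding protein, a fatty acid carrier of the cytoplasm that is induced in radial glia (chromosome 10, 57504687 to 57508256 on the plus strand). It was close to the limit of detection in ES cells, with an RPKM of 4.88 (1.584 to 11.39) from 5.0 reads, where 3 reads correspond to 2.93. In forebrain its RPKM was 3551.25 (3457 to 3647, 5419.3 reads). The ratio was 727.7, and the few reads in ES cells left it between 311.5 and 2243. By log2 difference (9.24) *Fabp7* ranked 13th of 19620 protein-coding genes, and it moved from percentile 25.7 in ES cells to 97.8 in forebrain.

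Of the 9 other fatty acid binding protein genes that were looked up, 5 are listed in the tables and *Fabp1*, *Fabp2*, *Fabp9* and *Pmp2* are not. At least 2-fold higher in forebrain was 1 gene, *Fabp5*, the epidermal type (65.20 in ES cells and 601.78 in forebrain, a ratio of 9.23, 7.965 to 10.75). Higher in ES cells by at least 2-fold were 3 genes, among them *Fabp3*, the heart type (1539.56 and 117.44). *Fabp6* had 12.74 and 1.71, but from 5.0 and 1.0 reads, and its interval included equal levels. The third, *Fabp4*, rested on 1.0 read in ES cells and was at 0 in forebrain, which also left equal levels within its interval. The median log2 difference of the 5 genes was -1.55.

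*Slc1a3* encodes GLAST, the glutamate transporter of radial glia and astrocytes (chromosome 15, 8584124 to 8660764 on the minus strand). Its RPKM was 78.94 in ES cells (72.49 to 85.81, 552.0 reads) and 289.71 in forebrain (279.5 to 300.2, 3019.4 reads). The ratio of 3.67 (3.351 to 4.026) was the smallest of the 5 genes past 2-fold. In forebrain it was also the lowest of these 5, at percentile 63.8 of protein-coding genes, compared with 49.8 in ES cells.

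Among the 6 other genes of the SLC1 family, 2 were at least 2-fold higher in forebrain and 2 in ES cells (median log2 difference 0.09). *Slc1a2*, which encodes the other glial glutamate transporter, GLT-1, rested on 1.0 read in ES cells (RPKM 0.09) and had 132.36 in forebrain from 2125.4 reads, a ratio between 258.1 and 64182. Its RPKM in forebrain was below that of *Slc1a3*. *Slc1a6* had 7.60 in ES cells and 35.68 in forebrain, and *Slc1a1*, the neuronal and epithelial transporter gene, had 30.87 and 13.01. The other gene higher in ES cells, *Slc1a7*, had 1.22 there from 3.5 reads and was at 0 in forebrain, and its interval included equal levels. The highest forebrain value of the list was that of *Slc1a4*, a neutral amino acid transporter gene (212.08 in ES cells and 362.29 in forebrain).

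*Prom1* encodes prominin-1 (CD133), a cholesterol-binding protein of membrane protrusions that sits at the apical surface of neuroepithelial cells (chromosome 5, 44384864 to 44493271 on the minus strand). Its RPKM was 155.01 in ES cells (142.6 to 168.2, 573.5 reads) and 1941.82 in forebrain (1905 to 1979, 10708.1 reads), a ratio of 12.53 (11.52 to 13.65). It stood at percentile 58.0 of protein-coding genes in ES cells and at 94.6 in forebrain. Since 3 reads would give an RPKM of 0.81 in ES cells, the value there lay well above the limit of detection.

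Of 13 genes of apical junctions and polarity, a list that includes *Prom2*, 4 were at least 2-fold higher in forebrain, 3 in ES cells and 6 lay within 2-fold (median log2 difference 0.83). Those higher in forebrain were *Crb2*, *Cdh2*, *Pard6g* and *Numbl*, and those higher in ES cells *Cdh1*, *Prkci* and *Ocln*. *Cdh1*, encoding E-cadherin, had 2332.03 in ES cells and 66.23 in forebrain. *Cdh2*, encoding N-cadherin, had 56.53 and 947.84, and *Crb2*, an apical polarity gene, had 15.77 and 300.16. *Tjp1*, encoding the junction protein ZO-1, was the highest of the list in forebrain, with 776.06 and 1014.07. The list therefore did not move in a single direction. Of all listed genes, 25.8% were at least 2-fold higher in forebrain and 23.3% in ES cells.

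*Msi1* and *Msi2* encode the Musashi proteins, paralogous RNA-binding proteins that regulate translation in progenitors. *Msi1* (chromosome 5, 115879608 to 115905707 on the plus strand) had an RPKM of 33.57 in ES cells (28.56 to 39.2, 159.5 reads) and of 861.60 in forebrain (840.1 to 883.5, 6100.8 reads). The intervals were far apart, and the ratio was 25.67 (21.93 to 30.23). *Msi2* (chromosome 11, 88152884 to 88579827 on the minus strand) had 790.08 in ES cells (771.5 to 808.9, 6900.0 reads) and 1126.85 in forebrain (1109 to 1145, 14668.9 reads). Its ratio of 1.426 (1.386 to 1.468) was below 2-fold, and the intervals of both paralogs' ratios did not overlap.

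The paralogs therefore differed in the balance between them. *Msi2* was 23.5 times as high as *Msi1* in ES cells and 1.31 times in forebrain. Of the summed RPKM of both, *Msi1* made up 4.08% in ES cells and 43.3% in forebrain, while the sum was 823.7 and 1988.4. The intervals of the 2 genes did not overlap in either sample.

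The genes of later radial glia and astrocytes gave a mixed picture. Of 17 genes, 7 were at least 2-fold higher in forebrain, 2 in ES cells and 8 lay within 2-fold, with a median log2 difference of 0.69. *Ptprz1*, a receptor phosphatase of radial glia, had 5.83 in ES cells and 450.20 in forebrain, *Sparcl1*, which encodes a secreted matrix protein, had 8.23 and 556.45, and *Nfia*, a transcription factor gene of gliogenesis, had 1.00 and 64.10. *Gja1*, encoding connexin 43, was high in both (2487.74 and 2721.33). The genes higher in ES cells were *Aldh1l1* (505.85 and 36.13) and *Aldoc* (288.47 and 21.59), both widely used as astrocyte markers. The lowest values of the list in forebrain were those of *Aqp4* (9.17), *Gjb6* (8.84), *S100b* (4.42) and *Bcan* (3.13). *Aqp4* and *Gjb6* were at 0 in ES cells and are among the 7 genes past 2-fold in forebrain, from 59.5 and 24.5 reads there. *S100b* rested on 5.0 reads in ES cells and 8.0 in forebrain, and its interval included equal levels. *Glul*, in contrast, was high in both samples (1791.85 and 1619.73).

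**Figure D3:**
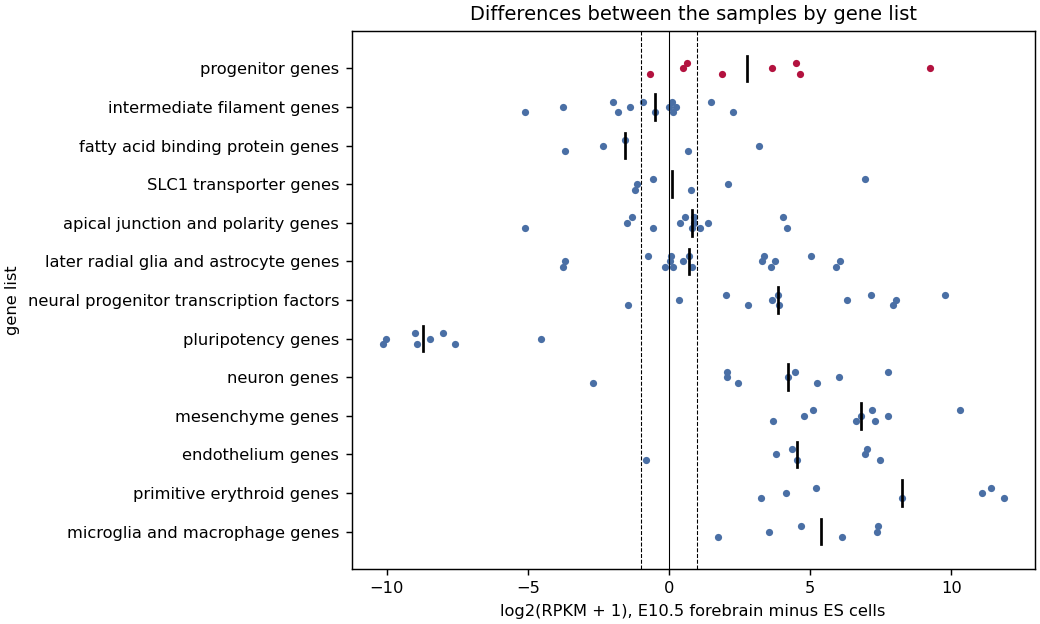
Difference between the samples (forebrain minus ES cells on log2(RPKM + 1)) for each listed gene (points) of the 8 progenitor genes, of related gene families and of marker lists, with the median of each list as a vertical bar. Dashed lines mark 2-fold. The progenitor genes spread from -0.67 to 9.24, all pluripotency genes lie to the left, and all mesenchyme and primitive erythroid genes lie to the right.

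The scaling of the samples did not change which genes were past 2-fold in forebrain. Under 8 alternatives, the log2 difference of *Nes* ranged from 4.24 to 4.76, that of *Prom1* from 3.37 to 3.91 and that of *Slc1a3* from 1.5 to 2.13. *Msi1* ranged from 3.67 to 4.91, *Vim* from 0.46 to 0.89 and *Msi2* from 0.35 to 0.78, so that this pair stayed below 2-fold throughout. *Fabp7* depended most on the setting, from 6.42 to 9.51. The lowest value came from scaling per 1000000 reads on protein-coding genes, which brought its level in ES cells below the pseudocount. *Gfap*, which had 7 alternatives, ranged from -1.01 to -0.05.

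**Figure D4:**
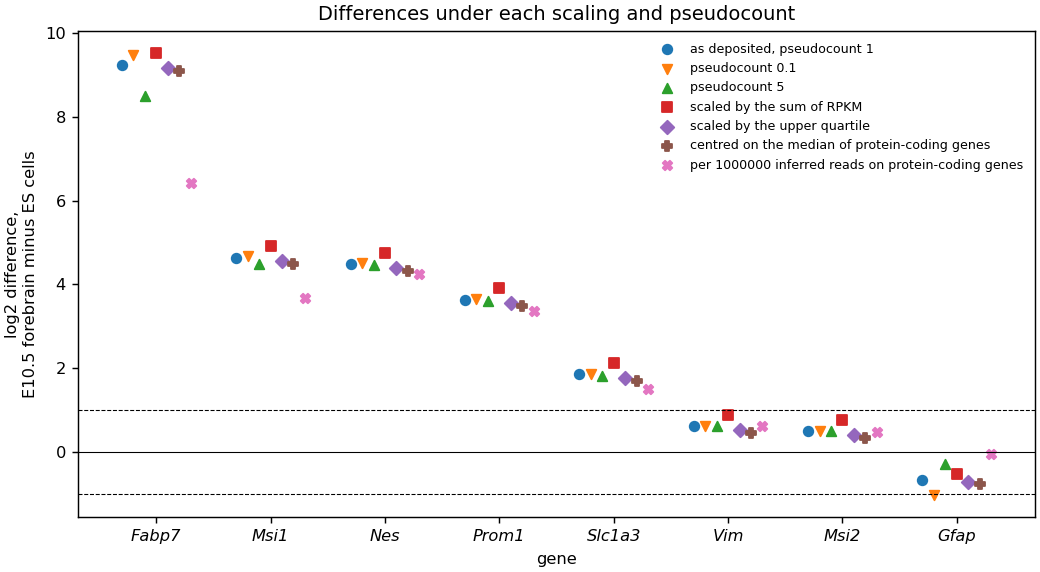
Log2 difference (forebrain minus ES cells) of each progenitor gene as deposited and under 6 other scalings and pseudocounts (symbols). Dashed lines mark 2-fold. *Fabp7*, *Msi1*, *Nes*, *Prom1* and *Slc1a3* stay above the upper line, *Vim* and *Msi2* stay between the lines, and *Gfap* reaches the lower line with a pseudocount of 0.1 alone.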

How the data were processed

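RNA-seq of 2 samples was used, 1 of ES cells and 1 of E10.5 forebrain, grouped by their labels. The authors mapped single-end reads (100 bp per the labels, 50 bp in the methods) to NCBIM37 (mm9) and deposited 1 RPKM value per gene and sample from the RNA-seq pipeline of HTSstation. The submitters' processing notes name Bowtie 0.12.7. Whether counting used strand, and the scaling per sample, are not given in the sources used here.

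All 29311 genes matched the annotation of the same build by identifier and coordinates, which gave merged exonic lengths. The step of 1 read was searched over genes of up to 2500 bp of exon. It was fitted to these same low values, as the largest multiple tried of the best period at which over 50% were whole. Within 0.05 of a whole multiple were 58.0% of 5044 low values in ES cells and 60.2% of 5533 in forebrain. For a step not fitted to the values, 10% would be by chance. The shares are therefore no independent evidence that the step is 1 read. Fractions of the step were kept as shared reads. Intervals are exact Poisson (levels) and exact binomial (ratios of RPKM). Simulated reads were used to check the search for the step and the calling of 4-fold changes. The intervals were not checked in this way.

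The rule for named genes covered the 8 genes, their closest protein-coding genes, and, per related list, the 3 with the largest log2 difference and the highest in forebrain. All others were named after their values were seen. The genes and lists were chosen with earlier results of these data known. Alternatives covered pseudocounts (0.1 and 5), 4 scalings, 2 filters and other fold limits. Computation was done in Python 3.11.15 (scipy 1.17.1, numpy 2.4.6, pandas 2.3.3), and figures were drawn with matplotlib 3.10.9.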

Additional observations from a re-analysis of the deposited data

Results flagged for a closer look

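Other entries of the tables overlap the genes described above and do not enter the comparison. They are given here because at least 3 reads were inferred for each value. *Gm16401* (chromosome 5, 44491681 to 44493752, NCBIM37), on the opposite strand, overlaps the 5′ end of *Prom1* and extends beyond it. It had an RPKM of 7.66 in ES cells and 90.92 in forebrain, from 13.0 and 230.0 reads. It shares 188 bases of exon with *Prom1*, and its ratio of 11.87 (6.804 to 22.63) stood beside 12.53 for *Prom1*. In *Msi1*, on the opposite strand and without shared exon, *4930430O22Rik* had 13.59 and 234.03, from 6.0 and 154.0 reads. Its ratio of 17.22 (7.733 to 47.66) stood beside 25.67 for *Msi1*. As the use of strand in counting is not given, reads of both strands in the same bases could not be told apart, and this was not tested. The bases shared with *Gm16401* are 4.2% of the exon of *Prom1*, and *Msi1* shares no exon with *4930430O22Rik*.

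Within *Msi2*, the miRNA entry AL732539.1 had an RPKM of 53.08 in ES cells and 124.64 in forebrain, on the opposite strand. These values rest on 4.0 and 14.0 reads, and the interval of the ratio (0.7374 to 9.798) included equal levels. The processed transcript *Gm15893*, also on the opposite strand, had 14.88 and 32.57, from 19.0 and 62.0 reads. The pseudogene *Gm11510*, on the same strand, had 15.08 in forebrain from 6.5 reads. *Gm17536*, a lincRNA gene that spans *Gfap* on the opposite strand without shared exon, had 131.18 in ES cells and 85.28 in forebrain, from 390.5 and 378.4 reads, compared with 8.5 and 6.0 reads for *Gfap*.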

How the results depend on the processing

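The count of 5 genes at least 2-fold higher in forebrain was the same under 8 alternatives of pseudocount, scaling and filter, and was 6 at 1.5-fold and 4 at 4-fold. The count of 0 genes at least 2-fold higher in ES cells became 1 (*Gfap*) with a pseudocount of 0.1 and 1 at a limit of 1.5-fold. The share of all genes past 1.5-fold was not counted, so these counts have no value to stand beside. The median log2 difference of 2.75 became 3.02 after scaling by the sum of RPKM, 2.59 when centred on the median of protein-coding genes and 2.43 per 1000000 inferred reads on protein-coding genes, and 3.64 with at least 10 inferred reads, which removed *Gfap*. Scaling by the sum shifted the median of all listed genes by 0.25 and centring shifted it by -0.14. The scaling per 1000000 reads left the samples unshifted (0.00), but lowered all values against an unchanged pseudocount. The median percentile was 59.0 in ES cells and 91.5 in forebrain among all listed genes, and 53.9 and 91.7 among protein-coding genes. No log2 difference of a single gene changed sign.

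No paired analysis was possible because each group holds 1 sample. For the same reason no sample could be left out. Depth limits the values of *Fabp7* in ES cells and of *Gfap* in both samples, which rest on 5.0, 8.5 and 6.0 reads.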

Other observations

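The protein-coding genes closest to each progenitor gene in both levels were found by Euclidean distance on log2(RPKM + 1) over the 2 samples. With 2 values per gene, such likeness describes a position in the comparison only. For *Fabp7*, 1 other protein-coding gene lay within a distance of 1, *2610017I09Rik* (6.17 in ES cells and 3793.46 in forebrain, distance 0.302). The next was the globin gene *Hbb-b1* at 1.035 (4.24 and 7211.09), a gene of red blood cells. For *Nes*, 18 genes lay within a distance of 1, the closest being *Ptbp2*, a neural splicing regulator (237.53 and 4427.20, distance 0.389), and *App*, the amyloid precursor gene (136.84 and 3791.98, distance 0.434). For *Vim*, 45 genes did, led by *Hist1h2bb* and *Ctnnb1*, and for *Prom1* 77, led by *Gm4066* and *Mtap1b*, a neuronal microtubule gene (165.44 and 1841.07). *Msi1* had 105 such genes (*Pkia* and *Rnf144a* the closest), *Gfap* 678 (*Gm14305* and *Csf3*), *Slc1a3* 915 (*Txnrd2* and *Parp11*) and *Msi2* 1766 (*Slc39a10* and *Glg1*).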
